A study of Homo sapiens with 6 samples.

Results

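The genes described here are 42 genes that interferon is known to switch on, together with receptor chains for interferon and genes of antigen presentation. They were taken by symbol from a list. A probe set, a group of probes that together read a transcript, was used only if the array annotation gives it exactly 1 symbol, and each gene was read from its brightest probe set by the mean of the 6 arrays. By this rule 41 of the 42 genes were measured, of 19775 genes in all, and STAT2 was not analysed here. The 41 genes have 79 such probe sets of 54613 tested. All 6 samples were MHCC97H cells, an established human hepatocellular carcinoma (HCC) line, that had been heated at 47 °C as a model of the residual cells left at the edge of a thermally ablated tumor. Cells of 3 samples received no periostin (POSTN 0 ng/mL, the control), and cells of the other 3 received 100 ng/mL recombinant POSTN, a matrix protein that binds integrins, for 24 h. Total RNA of every sample was read on 1 array of the type Affymetrix Human Genome U133 Plus 2.0. The study used the experiment to ask which genes POSTN changes in heat-treated HCC cells. Unheated cells were not analysed here, so nothing below measures the effect of heat, and a single cell line was used.

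Interferons are secreted proteins that warn cells of infection. Type I interferon binds the receptor chains IFNAR1 and IFNAR2 and activates the complex ISGF3, to which STAT2 and IRF9 belong and which binds the interferon-stimulated response element (ISRE) in promoters. Interferon-γ binds IFNGR1 and IFNGR2 and acts on promoters through the γ-activated site (GAS). The genes switched on include sensors of viral RNA, enzymes and RNA-binding proteins that block viral replication, and the machinery that loads peptides onto MHC class I. In liver cells this response is best known from viral hepatitis.

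Promoters of 30 of the 41 measured genes were found among RefSeq's sequences (GRCh38.p14, 250 bases before the start of transcription and 50 from it on). These 5 are shown because OAS1, IFIH1, IFIT3 and GBP1 carry the differences described below, and because ISG15, the namesake of the family, had none. Each is read 5′ to 3′ on the strand of its gene. Capitals mark the letters GAAANNGAAA (the ISRE core), TTCNNNGAA (the GAS core) and, with 1 base less between the repeats, GAAANGAAA, each searched on both strands.
ISG15, chr1:1013247-1013546, plus strand: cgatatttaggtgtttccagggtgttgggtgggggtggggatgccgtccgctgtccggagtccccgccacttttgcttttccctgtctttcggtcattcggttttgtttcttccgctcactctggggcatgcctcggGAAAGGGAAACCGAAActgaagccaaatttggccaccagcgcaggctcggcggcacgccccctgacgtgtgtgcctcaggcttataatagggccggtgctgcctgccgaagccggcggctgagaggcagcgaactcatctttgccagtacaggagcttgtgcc
OAS1, chr12:112906712-112907011, plus strand: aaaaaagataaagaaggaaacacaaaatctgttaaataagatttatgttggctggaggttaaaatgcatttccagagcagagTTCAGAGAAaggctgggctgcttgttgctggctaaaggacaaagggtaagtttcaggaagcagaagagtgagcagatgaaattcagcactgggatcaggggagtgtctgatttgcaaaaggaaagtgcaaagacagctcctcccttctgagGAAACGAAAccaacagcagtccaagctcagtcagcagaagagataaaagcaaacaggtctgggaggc
IFIT3, chr10:89327747-89328046, plus strand: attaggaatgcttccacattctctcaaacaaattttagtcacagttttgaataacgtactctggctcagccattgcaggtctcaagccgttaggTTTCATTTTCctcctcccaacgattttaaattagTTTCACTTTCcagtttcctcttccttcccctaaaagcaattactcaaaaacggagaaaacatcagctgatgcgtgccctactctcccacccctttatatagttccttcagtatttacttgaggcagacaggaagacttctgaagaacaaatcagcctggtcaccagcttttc
IFIH1, chr2:162318635-162318934, minus strand: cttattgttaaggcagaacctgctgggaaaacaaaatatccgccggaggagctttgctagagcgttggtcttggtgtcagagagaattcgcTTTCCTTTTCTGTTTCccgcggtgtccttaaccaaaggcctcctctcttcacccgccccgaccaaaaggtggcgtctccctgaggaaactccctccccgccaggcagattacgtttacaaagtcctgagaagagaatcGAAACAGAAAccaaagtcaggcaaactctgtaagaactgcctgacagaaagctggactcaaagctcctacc
GBP1, chr1:89065159-89065458, minus strand: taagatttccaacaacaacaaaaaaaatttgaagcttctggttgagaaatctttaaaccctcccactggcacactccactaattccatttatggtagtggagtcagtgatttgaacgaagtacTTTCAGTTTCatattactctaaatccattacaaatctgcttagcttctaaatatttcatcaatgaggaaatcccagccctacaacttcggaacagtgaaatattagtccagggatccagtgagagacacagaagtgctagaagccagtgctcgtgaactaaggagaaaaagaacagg

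The ISRE letters were present in 21 of the 30 promoter-matched genes (70%), compared with 4.38% of 27305 genes with a promoter in the table. The GAS letters were present in 9 of the 30 (30%), compared with 9.38%. ISRE and GAS letters overlapped in the promoters of IFITM1, IFI27, BST2 and MX1, and 5 genes, the receptor chains IFNAR1, IFNGR1 and IFNGR2 together with SP100 and HERC6, had neither. ISG15 had 2 overlapping ISRE matches between bases -113 and -98 from its start, and IFIH1 had a pair between -159 and -144 and another match at -21. In OAS1, the window held a GAS match at -168 and no ISRE match. The shorter form GAAANGAAA, searched after the OAS1 promoter had been read, stood at -17 in OAS1 and was found in 7 of the 30 genes (23.3%) and in 3.87% of all genes. Of those 7 genes, OAS1 and IFI35 were the 2 without ISRE letters. A match is a description of the letters, not a measured binding site, and a missing match says only that these letters are not in this window.

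**Figure D1:**
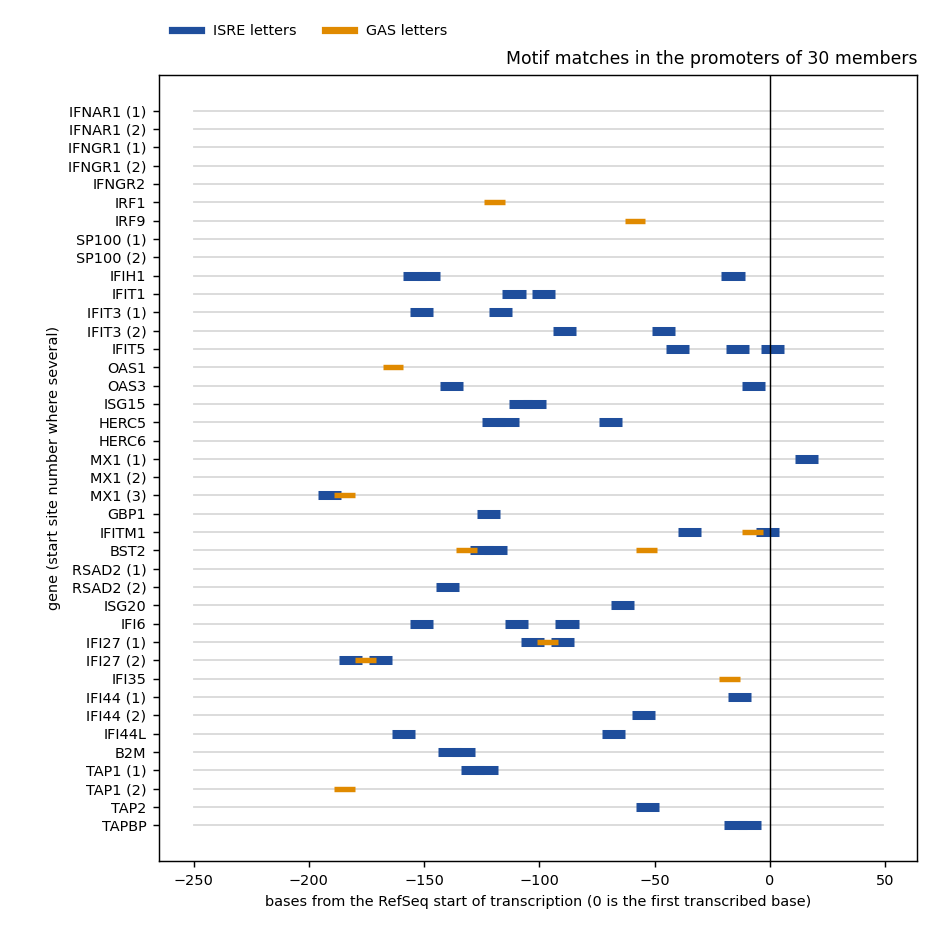
Positions of the ISRE letters (blue) and GAS letters (orange) in the 300 bases around each RefSeq start of transcription, for the 30 genes with a promoter sequence. The x axis gives bases from the start, each grey line is 1 start site, and genes with several start sites have several lines. Of the 30 genes, 21 carry a blue mark and 9 an orange one.

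The arrays were alike in overall signal. The values are log2 signals of the MAS 5.0 algorithm, and the median of an array was 5.80 to 5.95. No detection calls were used, so a background level of 5.98 was set as the 95th percentile of the mean log2 signals of 107 probe sets of olfactory receptor genes, which liver cells are not known to use. By that level, 11550 of all genes lay above background. Of 12 hepatocyte and liver carcinoma markers, 8 had means above background, among them the keratins KRT8 and KRT18 and the fetal liver protein AFP on every array. The apolipoproteins APOA1 and APOA2, SERPINA1 and AHSG had means within it. Of 3 epithelial markers, KRT19 (12.36) and CDH1 (7.49) were above it and EPCAM (5.71) within it. Of 4 endothelial markers, PECAM1 (10.10) and KDR (6.83) were above it, and VWF (4.61) and CDH5 (2.48) within it. Of 6 leukocyte markers, 5 were within background (PTPRC at a mean of 3.80) and CD3E (6.19) was just above it. Of 7 stellate and fibroblast markers, LUM (11.17), DCN (9.26) and COL1A1 (8.22) were above it, and ACTA2 (5.86), COL3A1 (5.67), COL1A2 (4.62) and PDGFRB (3.31) were within it. In RNA from whole cultures, fewer cells of a type and less RNA per cell cannot be told apart. Neither the labels nor the methods say whether the 3 samples of a condition were separate cultures, and a p-value here speaks only for the spread among these samples, which may be technical.

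Most of the 41 genes gave a signal above background in the heated cells, to which no interferon was added, as did most genes of the array. Of the 41 genes, 32 had a mean log2 signal above background and 9 lay within it. Over all genes, 11550 of 19775 lay above it. The 32 include the receptor chains and the antigen presentation genes, so the count is no measure of an interferon response. The 9 were the GTPases MX1 and MX2, the RNA sensor DHX58, the ISG15 ligase HERC5, the ISG15 protease USP18, IFI44L, and the antiviral effectors BST2, RSAD2 and TRIM22. Their mean log2 signals ran from 3.09 (BST2) to 5.91 (USP18). At such levels MAS 5.0 values scatter widely, and RSAD2 for example read 0.57 on control array 3 and 4.56 on control array 1. All 4 receptor chains, all 4 IFIT genes, all 4 OAS genes and all 4 genes of antigen presentation lay above background.

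**Figure D2:**
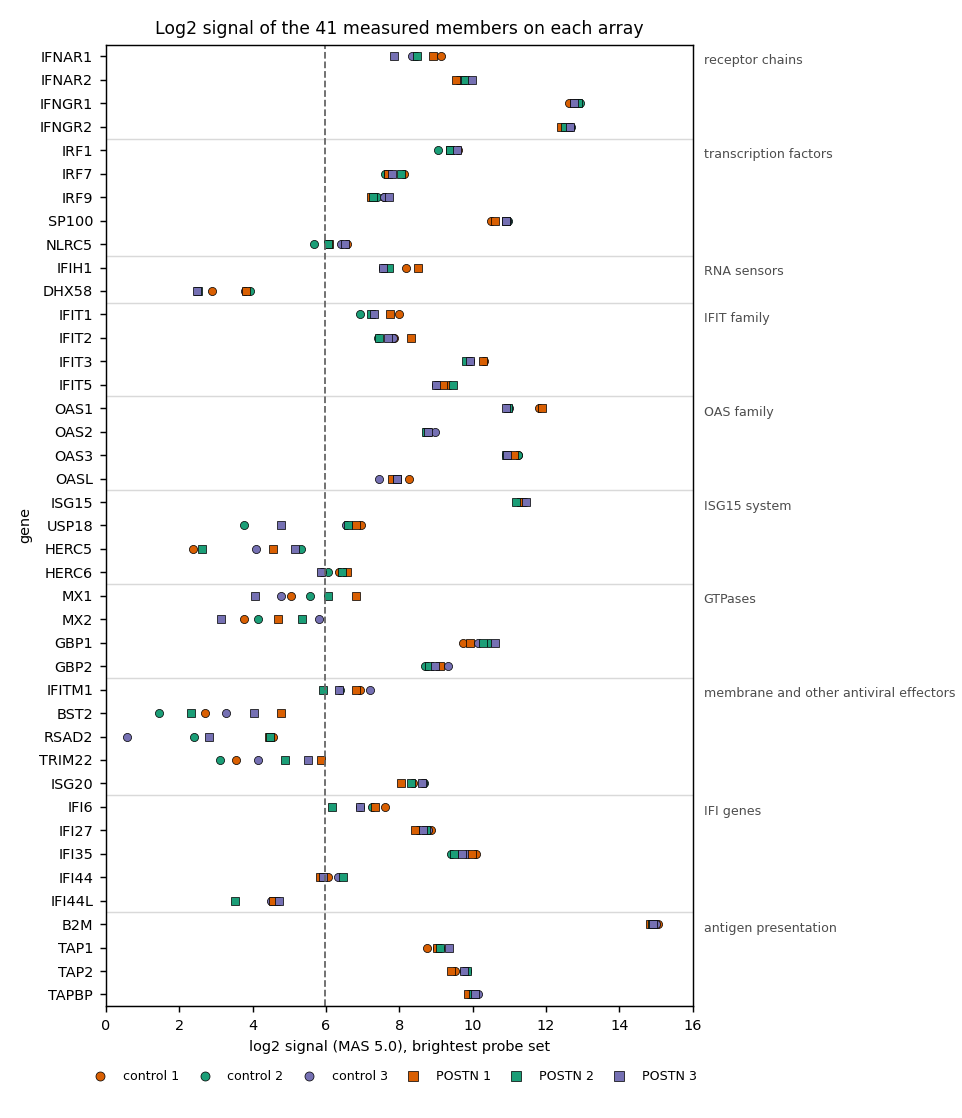
Log2 signal (x axis) of the 41 measured genes (y axis, grouped by role) on each of the 6 arrays, read from the brightest probe set of each gene. Circles are control and squares POSTN arrays, colored by replicate number, and a dashed line stands at the background level (5.98). The 9 genes with a mean left of the line are within background, and OAS1 shows both arrays numbered 1 apart from the other 4.

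None of these genes passed the test for POSTN. In limma, 0 of the 41 had an adjusted p under 0.05 (the background over all 54613 probe sets was 0%), and the lowest adjusted p among them was 1. At an unadjusted p under 0.05 limma and the methods' t-test each gave 1 of the 41, TRIM22, compared with 2.48% of all genes in limma. Signals were higher with POSTN for 21 genes and lower for 20, with a median log2 difference of 0.0072, and the median of all genes was 0.00015. Among the 32 genes above background the differences ran from -0.47 (IFITM1) to 0.20 (TAP1). With the replicate number as a block (replicate block), 0 of the 41 passed, the lowest adjusted p among them was 0.966, and 2 of them, TRIM22 and IFNGR2, had an unadjusted p under 0.05, compared with 4.76% of all genes.

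TRIM22, a ubiquitin ligase with antiviral activity, had the largest POSTN difference of the 41 (1.82), followed by RSAD2 (1.40) and BST2 (1.23), all 3 with means within background. Its log2 signals (213293_s_at) were 3.56, 3.11 and 4.15 on control arrays 1, 2 and 3, and 5.88, 4.89 and 5.51 on POSTN arrays 1, 2 and 3. The conditions did not overlap, POSTN being the higher one, and all 6 values were below the background level. The means were 3.61 ± 0.52 (SD, n = 3) and 5.43 ± 0.50 (SD, n = 3), a log2 difference of 1.82 (standard error 0.69, 95% confidence interval 0.27 to 3.37). TRIM22 was thus the only one of the 41 to meet the study's thresholds, a fold change over 2 or under 0.5 with an unadjusted p under 0.05, and the only one whose conditions did not overlap on the brightest probe set. Of all genes, 1.15% met these thresholds as higher and 0.915% as lower, and the conditions did not overlap in 7.13%. The count at the thresholds was 0 with 50 added to the linear signals before taking log2, and without control array 2, POSTN array 1 or both arrays numbered 1.

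More genes passed between replicate numbers than with POSTN. The arrays numbered 1 were compared with the mean of those numbered 2 and 3 in a fit with condition and number, a contrast singled out with earlier results of these data known. The labels do not say what a number stands for. Of the 41 genes, 7 passed an adjusted p under 0.05 in limma. OAS1, IFNAR1, IFIH1, IFI35 and IFIT3 were higher in number 1, and SP100 and GBP1 were lower. Over all genes 9.82% passed, 5.08% as higher and 4.73% as lower, and the 7 of 41 (17.1%) are read against these shares. Among genes above background 16.6% passed, and the 7 were all among the 32. Number 1 lay apart from numbers 2 and 3 in both conditions, without overlap, for 9 genes that were higher and 5 that were lower, where 31.6% of all genes and 43.8% of those above background did not overlap. The median log2 difference of the 41 was 0.16 (0.075 over the 32 above background), and the median of all genes was -0.0018.

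These calls depended on a few choices. Without control array 1 only OAS1 passed, without POSTN array 1 only OAS1 and SP100 passed, and when limma's prior variance did not follow the signal level, 0 of the 41 passed (lowest adjusted p 0.383, with 4 at an unadjusted p under 0.05) and 0 of all 54613 probe sets. Over all 79 probe sets of the genes, 11 passed (9 higher and 2 lower), compared with 6.21% of all probe sets. Of the 79, 59 were above background, and when only probe sets above background were tested, 4470 of all 25320 passed. Number 2 against number 3 gave 0 of the 41 in limma (the background over all probe sets was 0%), and 1 of them, IFI35, had an unadjusted p under 0.05 (6.15% of all genes). The test of whether the POSTN difference itself differed between number 1 and the others gave 0 of 41 at an adjusted p under 0.05, and 1, IFNAR2, at an unadjusted p under 0.05 (4.6% of all genes).

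**Figure D3:**
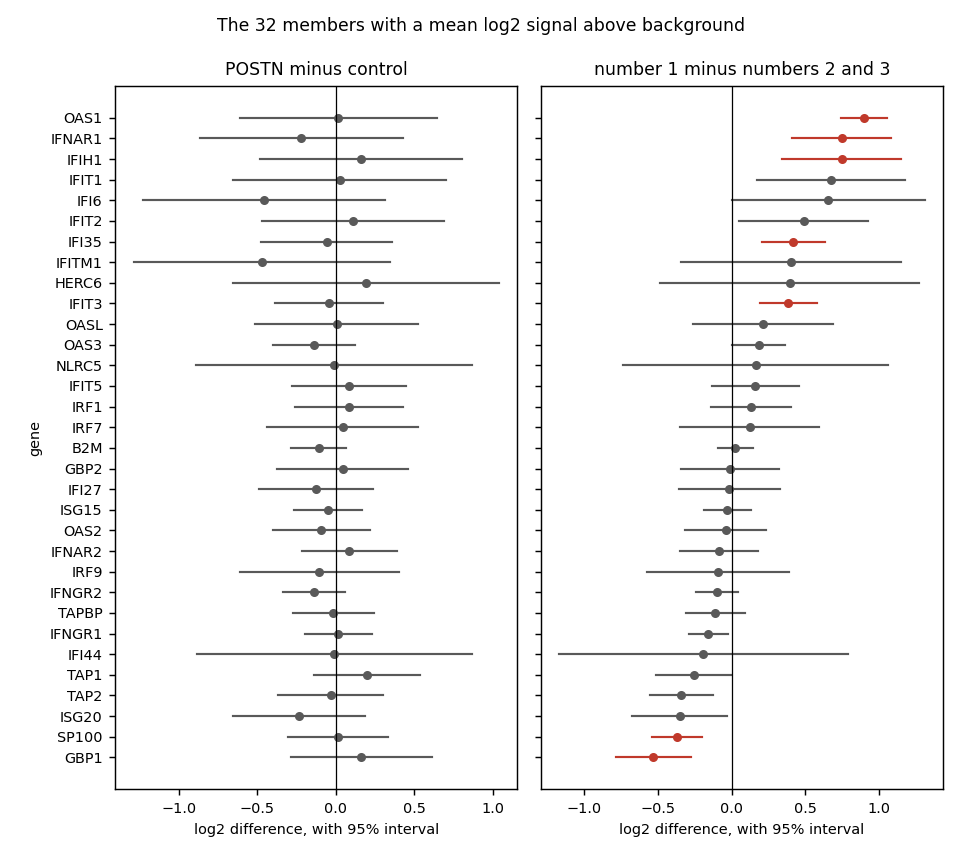
Log2 difference (x axis) with its 95% confidence interval from limma for the 32 genes above background (y axis), for POSTN minus control (left) and for number 1 minus the mean of numbers 2 and 3 (right). Red marks the 7 genes with an adjusted p under 0.05. On the left every interval crosses 0, and on the right OAS1 at 0.90 and GBP1 at -0.53 are the ends of the range.

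Of the receptor chains, IFNAR1 rose in number 1 and the other 3 did not pass. IFNAR1 (225669_at) read 9.14, 8.45 and 8.35 on control arrays 1, 2 and 3, and 8.93, 8.49 and 7.85 on POSTN arrays 1, 2 and 3, the order used for all values below. Both arrays numbered 1 lay above the other 4, by a log2 difference of 0.75 (95% confidence interval 0.41 to 1.09, adjusted p = 0.0144 in limma), or 1.68-fold. The partner chain IFNAR2 gave 9.80, 9.61 and 9.67 in control cells and 9.56, 9.78 and 9.997 with POSTN on its brightest probe set, 204785_x_at, where the numbers overlapped (-0.087). Its probe set 227125_at, with 9.27, 8.75 and 8.93 in control and 9.35, 8.63 and 9.004 in POSTN cells, rose by 0.48 in number 1 (adjusted p = 0.0375 in limma). The third, 204786_s_at, gave 0.60 without passing, so that the probe sets of IFNAR2 did not give the same direction. For interferon-γ, IFNGR1 read 12.63, 12.94 and 12.80 in control and 12.76, 12.88 and 12.77 in POSTN cells, and number 1 was the lowest pair, with a difference of -0.16, without passing the test (adjusted p = 0.188 in limma). A second bright IFNGR1 probe set, 211676_s_at (mean 12.16), differed by -0.0038 between number 1 and the others. IFNGR2 read 12.65, 12.69 and 12.65 in control and 12.40, 12.51 and 12.65 in POSTN cells. With POSTN it differed by -0.14, with an unadjusted p of 0.143 in limma and of 0.042 in the fit with the replicate block. The conditions overlapped.

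Among the transcription factors, SP100 fell in number 1 and the others did not pass. SP100, a protein of PML nuclear bodies, read 10.50, 10.96 and 10.94 in control cells and 10.62, 10.90 and 10.92 with POSTN on 202863_at. Number 1 lay below all other arrays, with a difference of -0.37 (95% confidence interval -0.54 to -0.20, adjusted p = 0.0156 in limma). A second probe set of like brightness, 202864_s_at, gave -0.25 and did not pass. Of the 5 SP100 probe sets above background, 4 were lower in number 1. IRF9, the DNA-binding subunit of ISGF3, read 7.57, 7.39 and 7.60 in control and 7.24, 7.30 and 7.71 in POSTN cells, with overlap in both comparisons (POSTN -0.10, number 1 -0.092). IRF1, an activator downstream of interferon-γ, read 9.60, 9.07 and 9.42 in control and 9.39, 9.38 and 9.57 in POSTN cells, a log2 difference of 0.084 with POSTN. Its dimmer probe set 238725_at, with 8.87, 8.51 and 8.27 in control and 8.86, 8.23 and 8.23 in POSTN cells, rose by 0.55 in number 1 (adjusted p = 0.0447 in limma), while the brightest gave 0.13. IRF7, which amplifies type I interferon production, differed by 0.044 with POSTN and 0.12 by number, and NLRC5, the activator of MHC class I genes, by -0.01 and 0.16.

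The RNA sensor IFIH1 (MDA5), which detects long double-stranded RNA, rose in number 1. It read 8.17, 7.55 and 7.55 in control and 8.50, 7.72 and 7.54 in POSTN cells (219209_at). Both arrays numbered 1 stood clear of the other 4, which lay close together. The difference was 0.75 (95% confidence interval 0.34 to 1.15, adjusted p = 0.0355 in limma), or 1.68-fold, and POSTN differed from control by 0.16. The related sensor DHX58 (LGP2) was within background.

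All 4 IFIT genes, whose products bind viral RNA, had higher mean signals in number 1 on their brightest probe sets, and of these IFIT3 passed. IFIT3 (229450_at) read 10.30, 9.93 and 9.93 in control and 10.27, 9.81 and 9.94 in POSTN cells. The arrays numbered 1 were again the highest pair, by 0.39 (95% confidence interval 0.19 to 0.58, adjusted p = 0.0245 in limma), but the second probe set, 204747_at, differed by 0.0095. IFIT1 read 7.99, 6.92 and 7.29 in control and 7.74, 7.22 and 7.32 in POSTN cells, a difference of 0.68 (adjusted p = 0.124 in limma). IFIT2 read 7.87, 7.42 and 7.84 in control and 8.31, 7.44 and 7.71 in POSTN cells, a difference of 0.49 (adjusted p = 0.219 in limma). On the brightest probe sets of IFIT1 and IFIT2 number 1 did not overlap with the others. For IFIT2 the gap between the arrays numbered 1 and 3 of the control was small. Its second probe set, 217502_at, was just above background (mean 6.04) and differed by 0.048, with overlap. IFIT5 differed by 0.16, with overlap, and its second probe set, 203596_s_at, differed by -0.25. With POSTN the 4 genes differed by -0.042 (IFIT3) to 0.11 (IFIT2).

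OAS1 had the lowest adjusted p of the 41 genes in the comparison by number. OAS enzymes make the 2′-5′ oligoadenylate that activates RNase L. On 205552_s_at OAS1 read 11.80, 10.94 and 10.99 in control and 11.89, 10.97 and 10.90 in POSTN cells, so that the arrays numbered 2 and 3 spanned 10.90 to 10.99 and those numbered 1 spanned 11.80 to 11.89. The difference of 0.90 (95% confidence interval 0.74 to 1.05) was 1.86-fold, with an adjusted p of 3.61e-05 in limma. The second probe set, 202869_at, read 11.24, 10.17 and 10.17 in control and 11.12, 10.15 and 10.38 in POSTN cells, a difference of 0.96. OAS1 passed whichever single array was left out, and its POSTN difference was 0.015. OAS3 read 11.24, 11.23 and 10.92 in control and 11.13, 10.91 and 10.94 in POSTN cells, and number 1 differed by 0.18 with overlap (adjusted p = 0.264 in limma), and by -0.65 on its dimmer probe set 232666_at, which did not pass. OAS2 differed by -0.038 and OASL by 0.22, neither past the test.

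**Figure D4:**
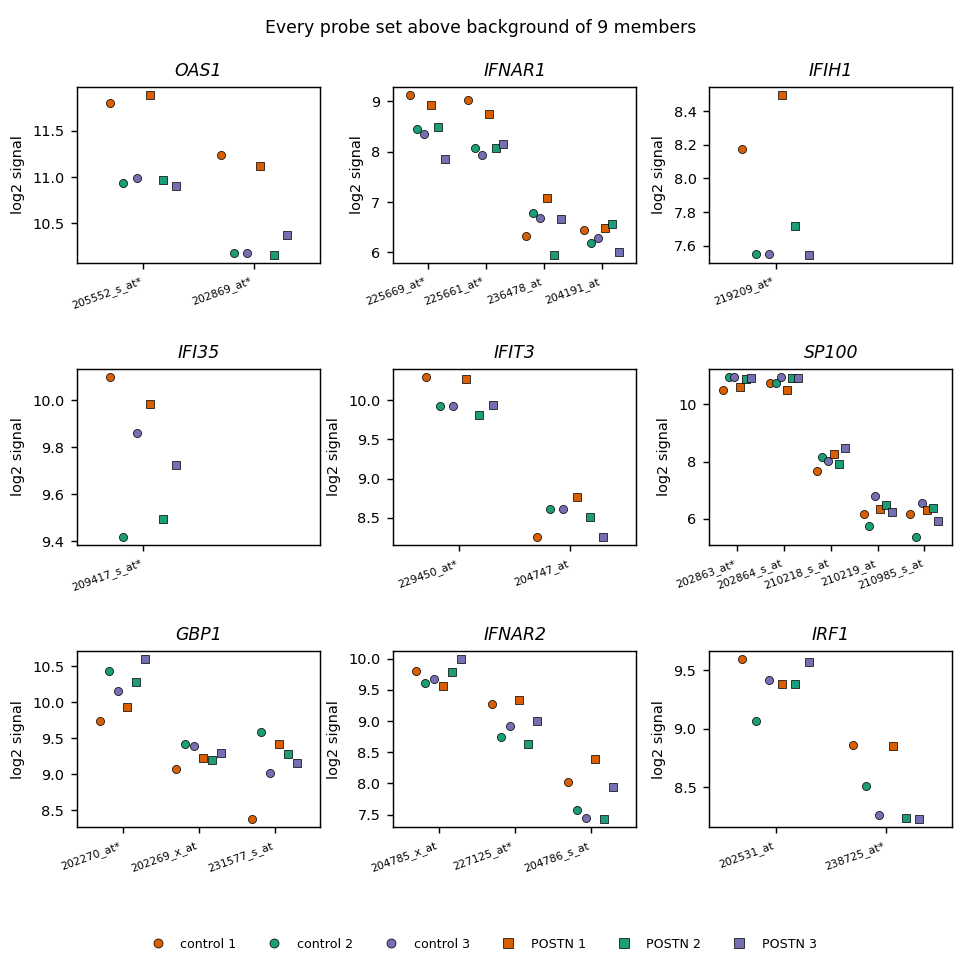
Log2 signal (y axis) on each array for every probe set above background (x axis) of the 7 genes that passed between replicate numbers and of IFNAR2 and IRF1. Circles are control and squares POSTN arrays, colored by replicate number, and an asterisk marks a probe set with an adjusted p under 0.05. Both OAS1 probe sets carry the asterisk, while IFIT3, SP100 and GBP1 each carry it on 1 probe set.

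None of the ISG15 system passed in either comparison. ISG15, a ubiquitin-like protein that is coupled to other proteins, read 11.34, 11.37 and 11.43 in control and 11.33, 11.19 and 11.46 in POSTN cells. All 6 values lay between 11.19 and 11.46, with a POSTN difference of -0.05 (95% confidence interval -0.27 to 0.17) and a number difference of -0.028 (-0.18 to 0.13). USP18, which removes ISG15 and restrains the receptor, read 6.95, 3.77 and 6.54 in control and 6.82, 6.61 and 4.76 in POSTN cells, with control array 2 and POSTN array 3 far below the other 4. HERC6, a relative of the ISG15 ligase HERC5, read 6.35, 6.06 and 5.90 in control and 6.57, 6.45 and 5.87 in POSTN cells near the background level, and differed by 0.19 with POSTN and 0.39 by number.

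Of the GTPases, GBP1 fell in number 1. GBP1, a guanylate-binding protein that interferon-γ strongly induces, read 9.73, 10.44 and 10.15 in control and 9.94, 10.27 and 10.60 in POSTN cells (202270_at). Number 1 was the lowest pair, with a difference of -0.53 (95% confidence interval -0.79 to -0.28, adjusted p = 0.0198 in limma). The probe sets 202269_x_at (-0.17) and 231577_s_at (-0.36) had the same sign and did not pass. GBP2 differed by -0.0091 between numbers and by 0.043 with POSTN.

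No membrane or other antiviral effector passed. IFITM1, which hinders virus entry at the membrane, read 6.92, 6.38 and 7.21 in control and 6.82, 5.93 and 6.35 in POSTN cells, the lowest POSTN difference among the genes above background (-0.47, 95% confidence interval -1.29 to 0.35), with overlap. A probe set shared by IFITM2 and IFITM1, 201601_x_at, differed by 1.09 between number 1 and the others (adjusted p = 0.0527 in limma), compared with 0.40 for the IFITM1 probe set. ISG20, an RNA exonuclease, read 8.38, 8.68 and 8.64 in control and 8.05, 8.33 and 8.62 in POSTN cells on its brightest probe set, 33304_at, with overlap, a POSTN difference of -0.23 and a number difference of -0.35. Its second probe set, 204698_at, read 8.19, 7.83 and 7.68 in control and 8.31, 8.38 and 8.70 in POSTN cells. There the conditions did not overlap and POSTN was higher by 0.56 (unadjusted p = 0.0183, adjusted p = 1 in limma), so that the 2 probe sets of ISG20 pointed in opposite directions.

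Of the IFI genes, IFI35 rose in number 1. IFI35 (209417_s_at), which associates with the interferon-induced protein NMI, read 10.10, 9.42 and 9.86 in control and 9.98, 9.49 and 9.72 in POSTN cells. Number 1 was the highest pair, by 0.42 (95% confidence interval 0.20 to 0.63, adjusted p = 0.0272 in limma), but numbers 2 and 3 also lay apart from each other, by -0.34 (number 2 minus number 3). IFI35 did not pass in limma when number 1 was set against the other arrays as a single term with condition (adjusted p = 0.0983) or without it (adjusted p = 0.0755), nor without POSTN array 3 (adjusted p = 0.0783). IFI6, a membrane protein that limits apoptosis, read 7.62, 7.26 and 6.93 in control and 7.34, 6.18 and 6.93 in POSTN cells, and differed by 0.66 between numbers (adjusted p = 0.278 in limma) and by -0.46 with POSTN. Both arrays numbered 1 were the highest, and POSTN array 2 was the lowest by a wide gap. IFI27 read 8.88, 8.52 and 8.79 in control and 8.44, 8.73 and 8.64 in POSTN cells, and IFI44 read 6.07, 5.85 and 6.33 in control and 5.84, 6.47 and 5.92 in POSTN cells, both with overlap in each comparison.

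No antigen presentation gene passed in limma under either comparison. B2M, the light chain of MHC class I, read 15.07, 14.91 and 14.995 in control and 14.84, 14.90 and 14.91 in POSTN cells, differing by -0.11 with POSTN (95% confidence interval -0.28 to 0.064) and by 0.027 between numbers. TAP1 and TAP2 form the transporter that carries peptides into the endoplasmic reticulum. TAP1 read 8.76, 9.03 and 9.11 in control and 9.02, 9.12 and 9.35 in POSTN cells, the highest POSTN difference among the genes above background (0.20, 95% confidence interval -0.14 to 0.54), with overlap. Between numbers it was -0.26 (adjusted p = 0.273 in limma), and the arrays numbered 1 were the lowest pair only narrowly, since POSTN array 1 and control array 2 were nearly level. TAP2 read 9.51, 9.77 and 9.84 in control and 9.41, 9.84 and 9.77 in POSTN cells. Its arrays numbered 1 were clearly the lowest pair (-0.34, adjusted p = 0.0665 in limma), and it passed after quantile normalization and when only probe sets above background were tested. TAPBP (tapasin), which bridges TAP and MHC class I, read 9.95, 9.90 and 10.15 in control and 9.88, 9.998 and 10.07 in POSTN cells, a number difference of -0.11 with overlap.

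Genes that differed by number were found both with and without ISRE letters. Of the 21 genes with them, 2 were called higher and 1 lower (median log2 difference 0.16). Of the 9 promoter-matched genes without them, 3 were called higher and 1 lower (0.13). In the same comparison 9.82% of all genes passed, and 16.6% of those above background. BST2, HERC5, IFI44L, MX1 and RSAD2, all with the letters, were within background, and none of the 9 was. The groups thus differ in level, and their counts and medians cannot be compared directly. IFIH1, IFIT3 and GBP1 carry ISRE letters, and OAS1, IFNAR1, IFI35 and SP100 do not, although OAS1 and IFI35 carry the shorter form GAAANGAAA.

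Other genes of the pathway were read from further lists. None of their members passed with POSTN in limma, and none of these lists had a member called between numbers 2 and 3. The counts between number 1 and the others are to be read against 9.82% of all genes and 16.6% of those above background. Of these lists, 2 of 12 measured genes of JAK-STAT signalling and its regulators passed. The receptor kinase TYK2 was higher (0.49), and SOCS3, an inhibitor of cytokine signalling, was lower (-1.12). IRF2BP1 had a larger rise (1.22, adjusted p = 0.257 in limma) and JAK2 stood at -0.34, neither past the test. SOCS3 read 8.22, 9.67 and 9.46 in control and 8.54, 9.45 and 9.44 in POSTN cells, with both arrays numbered 1 well below the rest. Of 14 genes that sense RNA or DNA, DDX60 was higher (0.47) and the DNA sensor IFI16 lower (-0.60). TICAM1 had a larger fall (-0.89) without passing (adjusted p = 0.0773 in limma). Of 40 other interferon-stimulated genes, 4 were higher and 2 lower, led by APOL1 at 1.08 and SAMD9L at -0.58. Of 15 genes of HLA class I and its loading, PDIA3 (0.49), PSMB10 (0.44) and HLA-G (0.32) were higher and the chaperone CALR was lower (-0.36). Of 10 HLA class II genes 0 passed in limma, and 3 were above background. Of a list of 20 interferons and receptor chains 0 passed as well. There the 2 above background were the receptor chains IL10RB (a mean of 9.94) and IFNLR1 (8.87), and the interferon genes were all within it. At an unadjusted p under 0.05 between number 1 and the others these 2 lists gave 0 and 2. Of all 19775 genes 4747 did so, 4296 of them among the 11550 above background. With POSTN, the ends of these lists among genes above background were IRF2BP1 at -0.67 and LGALS9 at 1.17, and each rested on 1 array. IRF2BP1 read 6.93, 5.997 and 6.52 in control and 6.99, 3.81 and 6.64 in POSTN cells, and differed by 0.33 without POSTN array 2. LGALS9 read 7.26, 6.92 and 3.71 in control and 6.85, 7.72 and 6.83 in POSTN cells, and differed by 0.041 without control array 3. IFNG, the interferon-γ gene itself, was within background and met the study's thresholds as lower (-2.70).

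Some markers of liver cells also passed between replicate numbers. The counts of these markers, too, are to be read against 9.82% of all genes and 16.6% of those above background. Of 12 hepatocyte and liver carcinoma markers 4 were called higher in number 1, namely FGB (2.65), ALB (1.85), APOH (1.65) and SERPINA1 (2.92). In numbers 2 and 3 the means of ALB (5.94) and SERPINA1 (4.89) were within background. By sign, 7 of the 12 were higher and 5 lower, and the linear signals of the 12 summed to 53330 to 57130 in number 1 and 52160 to 57300 in the others. Most of that sum comes from KRT18 and KRT8 (mean log2 signals 15.02 and 13.96), which differed by -0.16 and -0.035. The sum therefore says little about the 4 called markers. Of 7 stellate and fibroblast markers DCN was lower (-1.002, sums 2905 to 3379 and 3441 to 3795), and of 4 endothelial markers PECAM1 was higher (0.51, sums 1411 to 1667 and 1007 to 1269). Of 6 leukocyte markers, 5 of them within background, 0 passed in limma (sums 111.9 to 213.9 and 226.0 to 322.9). At an unadjusted p under 0.05 there was 1 leukocyte marker, compared with 4747 of all 19775 genes. The log2 difference between 3′ and 5′ probe sets, a sign of RNA quality, was 0.898 to 0.929 for ACTB in number 1 and 0.812 to 1.09 in the others, and -0.0739 to -0.0619 for GAPDH compared with -0.0534 to -0.0018. Their part in the differences of the interferon-response genes was not tested.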

How the data were processed

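Condition and replicate number of the 6 arrays were taken from the sample titles. The authors made the signals with MAS 5.0 in R's affy package (versions not given in the sources used here), and the deposited values are log2 signals, scaled so that the mean linear signal of every array without the highest and lowest 2% is 500. MAS 5.0 subtracts background and mismatch signal, which widens the scatter of dim probe sets. The number of arrays limits the precision.

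Of 54675 probe sets, 62 Affymetrix controls were left out, and 54613 were fitted with limma 3.58.1 in R 4.3.3 (lmFit and eBayes with trend), with Benjamini-Hochberg adjustment over all of them. In the annotation 41091 have 1 symbol, 1801 have several and 11721 have none. POSTN was compared with control without pairing, as in the methods, and a second fit held condition and replicate number. The code was tested on simulated data. Alternatives changed the normalization, centring, an added 50, the filter, the probe set class, the variance trend, the pairing, the test and the arrays included.

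Same-numbered control and POSTN arrays deviated together from their condition's mean, with correlations of 0.088, 0.034 and 0.025 over all probe sets and of 0.529, 0.235 and 0.239 above background. Above background the unlike pairs gave 0.201 (control 2 with POSTN 3) and 0.15 (control 3 with POSTN 2), close to the values of the like pairs 2 and 3, and all other unlike pairs were negative. Deviations from a condition's mean cancel out within the condition, so these correlations depend on each other. The signs of the unlike pairs are therefore no separate evidence. By its own correlation (0.529) number 1 stood out as a like pair, while numbers 2 and 3 were not clearly told apart as pairs. The labels state no pairing, and the replicate block was used only in a second fit beside the unpaired one.

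The genes, the lists, the contrast of number 1 and the tests were chosen with earlier results of these data known. Values on every array are given for genes called in any comparison, for the 8 largest differences in each direction of each comparison among genes whose brighter side is above background, and for the receptor chains, IRF9 and the antigen presentation genes. TRIM22, ISG15 and the second probe sets were added after their values had been seen. Of the further lists, some of the genes with the largest differences above background are named, together with IFNG, which was within it. RefSeq promoters were matched by symbol, and 11 of the 41 genes had no entry.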

Additional observations from a re-analysis of the deposited data

How the results depend on the processing

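Under the alternatives tried, the count of genes called with POSTN (0 of 41 in limma) and between numbers 2 and 3 (0) did not move, and the median POSTN difference moved by less than the spread between arrays. With the replicate block 0 of the 41 were called with POSTN, and the block changed no other call. The single gene at the study's thresholds, TRIM22, was lost (count 0) with 50 added to the signals, above background only, without the probe set classes _x_at and _s_at (the last 2 remove its probe set) and without both arrays numbered 1, an alternative chosen after seeing the data. Leaving out 1 array in turn gave 0 to 1.

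Between number 1 and the others, the 7 calls became 0 without the variance trend, where 0 of all probe sets passed, and 1 to 8 when 1 array was left out (1 without control array 1, 2 without POSTN array 1). Without an array numbered 1, that number is a single sample whose spread is taken from the rest. The median of the genes was 0.075 above background only, and 0.047 to 0.21 when 1 array was left out. Quantile normalization also gave 7, with TAP2 in place of IFIH1, and 50 added to the signals gave 5. The cause of these shifts was not tested.

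Signs turned only where the gene had not been called in that comparison. For POSTN, IFNGR1 was -0.035 with centred arrays. Without both arrays numbered 1, the POSTN differences were 0.031 (IFI27), -0.054 (IFIT2), 0.011 (IRF9), -0.041 (IFNGR1), 0.0026 (TAP2) and 0.013 (TAPBP). Leaving out 1 array in turn gave POSTN differences of -0.47 to 0.068 for IFNAR1, -0.062 to 0.20 for IRF1, -0.022 to 0.20 for IFNAR2, -0.13 to 0.30 for IFIT2, -0.024 to 0.33 for GBP1, -0.13 to 0.37 for IFIH1, -0.68 to 0.96 for USP18, -0.065 to 0.091 for IFNGR1, -0.13 to 0.10 for TAP2 and -0.067 to 0.058 for TAPBP. For number 1 the ranges were -0.43 to 0.044 for IFI44, -0.26 to 0.081 for IRF9, -0.33 to 0.16 for IFNAR2 and -0.063 to 0.12 for B2M. Without those classes other probe sets were read. IFNGR1 then gave 1.13 from 242903_at, whose mean (5.65) was within background, and IFNAR2 gave 0.48 from 227125_at. With 3 arrays per condition and wide scatter near background, differences of the 9 dim genes could not be resolved.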
